A study of Mus musculus with 16 samples.

Results

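The interaction of genotype and diet is the difference between 2 responses to iodine shortage, that of thyroid glands without functional GLIS3 and that of WT thyroid glands. It was taken for each gene as the log2 change from *Glis3*-Pax8Cre(ND) to *Glis3*-Pax8Cre(LID) minus the log2 change from WT(ND) to WT(LID), over all 16 mice of the series in 4 groups of 4, and 16630 of 25611 entries in the count table had enough reads to be tested. All mice were females on a C57BL/6 label, 4 weeks old by the methods of the study and 1 month old by the labels, and had been fed a normal diet (ND) or a low iodine diet (LID) for 6 days. *Glis3*-Pax8Cre mice carry the alleles labelled *Glis3* tm2Amj and *Pax8* tm1.1(cre)Mbu, and Cre made from the *Pax8* locus removes exon 5 of *Glis3*, which encodes part of its zinc finger region. The control groups are labelled only as WT, so whether they carry a floxed or a Cre allele is not given. Whole glands were sequenced, and the model removes GLIS3 from follicular cells, which express *Pax8*, and not from the other cells of the gland.

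GLIS3 is a Krüppel-like zinc finger transcription factor that binds G-rich sites in DNA and activates genes for thyroid hormone synthesis in follicular cells. When iodine is short the gland makes less hormone, the pituitary releases more thyroid-stimulating hormone (TSH), and follicular cells respond by raising iodide uptake, dividing and calling in blood vessels. The study reports that serum TSH was slightly higher in *Glis3*-Pax8Cre than in WT mice on ND. On LID it reports that TSH rose significantly more in *Glis3*-Pax8Cre mice. The part of these TSH differences in the interactions was not tested. An interaction below 0 means that the diet response was lower without GLIS3 than with it, through a smaller rise or a greater fall, and an interaction above 0 means the reverse. A call is an adjusted p under 0.05 in the quasi-likelihood test of edgeR, with Benjamini-Hochberg adjustment over all genes tested. Levels are in CPM, which are counts scaled to the normalised library size. Responses, differences between genotypes and interactions are on the log2 scale, with SE for standard error.

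The libraries held 13892352 to 461077969 counted read pairs, with the fewest in *Glis3*-Pax8Cre(ND) mouse 1. Follicular markers were abundant in every library, led by *Tg* at 7.87% to 29.3% of counts. Some libraries stood apart from their group. *Glis3*-Pax8Cre(ND) mouse 4 had 3075 CPM of 11 summed thymocyte markers against 11.7 to 14.2 CPM in the other mice of its group. WT(ND) mouse 3 had 996 CPM of *Pax8* against 374 to 397 CPM in the other WT(ND) mice, and *Spon1* and *Adm2* set it apart as well. Summed skeletal muscle markers ranged from 5.24 to 1728 CPM over the 16 libraries. With both of these ND libraries left out, an alternative chosen after the data were seen, 2411 genes were called in place of 1969. *Glis3* itself does not check the labels, since reads were counted for the gene as a whole and exon 5 has no count of its own, and its interaction was -0.32 (SE 0.27, adjusted p = 0.49).

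The interaction was called for 1969 of the 16630 genes tested, which is 11.8%, with 1232 genes (7.41%) below 0 and 737 genes (4.43%) above 0. At an adjusted p under 0.01 and a change over 2-fold, 480 genes lay below 0 and 123 above 0. The number above 0 was 440 without WT(LID) mouse 2 and 432 without WT(LID) mouse 3. The median interaction over all genes was -0.01. In WT mice the diet raised 3476 genes (20.9% of those tested) and lowered 3467 genes (20.8%). In *Glis3*-Pax8Cre mice it raised 2184 genes (13.1%) and lowered 2039 genes (12.3%). Of the 3476 genes that rose in WT mice, 1077 rose less without GLIS3 by the test of the interaction and 33 rose more. Of the 3467 genes that fell in WT mice, 509 fell less without GLIS3 and 5 fell more. Among WT rises over 2-fold the share with a reduced rise was 47.0% (644 of 1369), and among WT falls over 2-fold the share with a reduced fall was 17.5% (178 of 1016). The WT response both selects the genes in these counts and enters the interaction. Part of the excess of reduced over greater responses can therefore follow from the selection, and how much was not tested.

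Called genes fell into 4 kinds of response. A reduced rise, meaning a rise in WT mice that was smaller, absent or turned into a fall without GLIS3, was the pattern of 1077 genes (54.7% of those called), with a median response of 1.15 in WT mice and -0.004 in *Glis3*-Pax8Cre mice. For 784 of the 1077 the diet change in *Glis3*-Pax8Cre mice was not called at all, 191 rose in these mice too, and 102 fell. A reduced fall was found for 509 genes, with medians of -0.74 and 0.11, and the number was 315 without WT(ND) mouse 4 and 273, 276 or 329 without WT(LID) mouse 2, 3 or 4. Greater rises, in which the diet raised a gene in *Glis3*-Pax8Cre mice and either not or less in WT mice, were found for 205 genes, with medians of -0.11 and 0.78. Greater falls were found for 129 genes (81 without *Glis3*-Pax8Cre(LID) mouse 4), with medians of 0.14 and -0.77, and 49 called genes had no called response in the direction that a class needs. These medians follow from how the classes are defined and are given as a description.

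**Figure D1:**
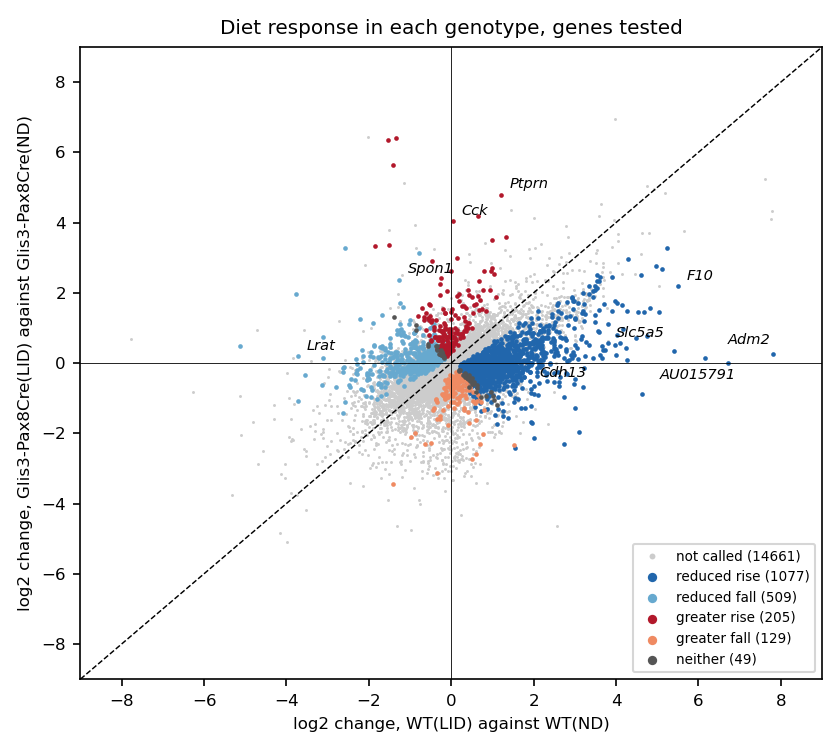
Log2 change from ND to LID in WT mice (x axis) and in *Glis3*-Pax8Cre mice (y axis) for each of the 16630 genes tested, coloured by the class of the interaction, with equal responses on the dashed line. The 1077 genes with a reduced rise lie to the right and below the line, with *Adm2* farthest among the genes labelled at 7.82 and 0.25, and *Cck* and *Ptprn* lie above it.

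An interaction can come from the levels on LID, from the levels on ND, or from both, and the genotype differences on each diet separate these cases. Of the 1077 genes with a reduced rise, 858 (79.7%) were lower without GLIS3 when compared on LID, against 15.4% of all genes tested, and 308 (28.6%) were already higher without GLIS3 on ND, against 10.3% of all genes tested. The difference was called on LID alone for 684 of the 1077. A further 192 were higher on ND and not lower on LID, so that their smaller rise began from a higher level, and 116 were higher on ND and lower on LID. Of the 509 genes with a reduced fall, 305 (59.9%) were higher without GLIS3 on LID, against 14.9% of all genes tested, and 211 (41.5%) were already lower on ND, against 9.25%. The interaction is the difference between these genotype differences, so the counts describe where it lies and are no separate evidence for it.

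**Figure D2:**
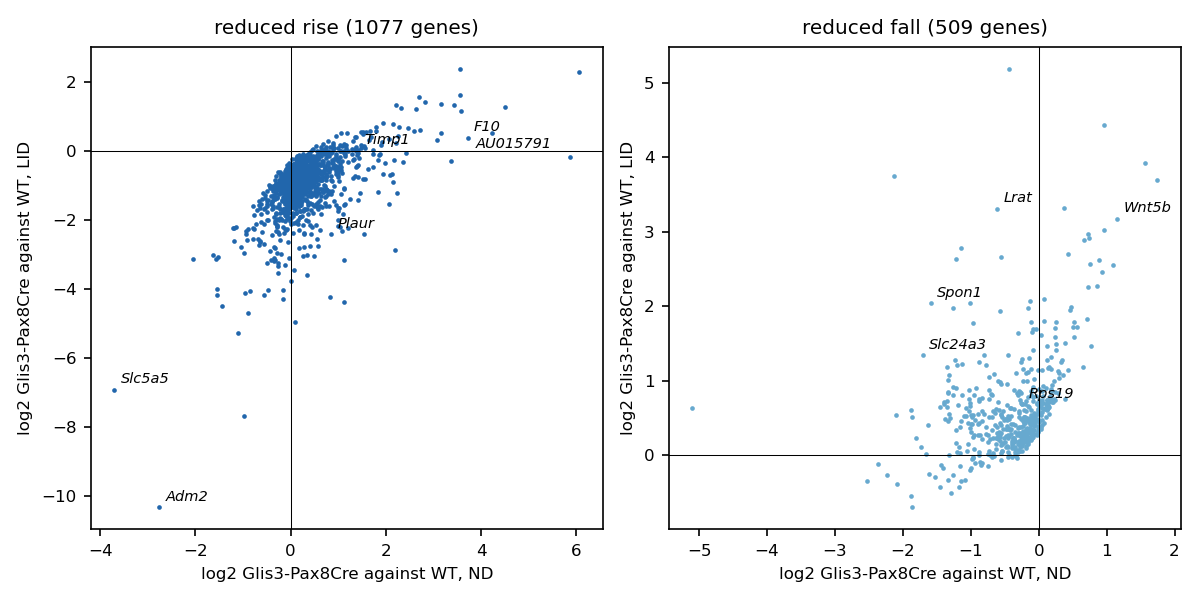
Log2 difference between *Glis3*-Pax8Cre and WT mice on ND (x axis) and on LID (y axis) for the 1077 genes with a reduced rise and the 509 genes with a reduced fall. *Slc5a5* and *Adm2* are lower on both diets and far lower on LID, whereas *AU015791*, *F10* and *Timp1* are higher on ND and near or above 0 on LID.

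The rise of *Slc5a5* and *Adm2* was far smaller without GLIS3. Neither response was called in *Glis3*-Pax8Cre mice, which does not show that a small rise was absent. *Slc5a5* encodes the sodium iodide symporter (Entrez 114479, mm10 chromosome 8, 70882889 to 70892757, minus strand), and *Adm2* encodes the vasodilator peptide adrenomedullin 2 (Entrez 223780, chromosome 15, 89322720 to 89324730, plus strand). Levels of *Slc5a5*, given here and for the genes that follow in the order of mice 1 to 4, were 182, 187, 81.8 and 132 CPM in the WT mice on ND and 1898, 2111, 2178 and 1927 CPM in those on LID. Without GLIS3 the values were 11.04, 8.43, 9.66 and 15.8 CPM on ND and 15.03, 20.2, 16.01 and 15.8 CPM on LID. Every *Glis3*-Pax8Cre mouse was below every WT mouse on either diet, and the *Glis3*-Pax8Cre groups overlapped. The response was 3.80 in WT and 0.58 in *Glis3*-Pax8Cre mice, and the interaction was -3.22 (SE 0.33, adjusted p = 1.86e-05). *Adm2* stood at 5.84, 7.63, 1.78 and 8.43 CPM in the WT mice on ND and 1619, 1115, 1247 and 1414 CPM in those on LID. The *Glis3*-Pax8Cre mice had 0.627, 0.775, 0.992 and 1.03 CPM on ND and 1.09, 1.01, 1.002 and 1.09 CPM on LID. All 4 WT(LID) mice were more than 100-fold over every other mouse, and the interaction, -7.57 (SE 0.53, adjusted p = 1.41e-06), was the largest in size among the called genes with a mean of at least 5 CPM.

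The 250 bases before the start of both genes are shown with those of *Wfikkn2* and *Entpd3*, whose rise was reduced. The windows of these last 2 genes hold the core of the GLIS binding site, TGGGGGGT or its reverse complement ACCCCCCA, in capitals. Among the genes ranked, *Wfikkn2* and *Entpd3* had the largest reduced rise with the core and a mean of at least 5 CPM. The ranking did not cover every chromosome. The other motif searched was the cAMP response element TGACGTCA, since TSH acts through cAMP, and the 2 motifs do not overlap in letters. Sequences are from RefSeq, build GRCm38.p6, 5′ to 3′ on the strand of the gene, at chr8:70892758-70893007 (minus strand), chr15:89322470-89322719 (plus strand), chr11:94242580-94242829 (minus strand) and chr9:120539568-120539817 (plus strand).
Slc5a5: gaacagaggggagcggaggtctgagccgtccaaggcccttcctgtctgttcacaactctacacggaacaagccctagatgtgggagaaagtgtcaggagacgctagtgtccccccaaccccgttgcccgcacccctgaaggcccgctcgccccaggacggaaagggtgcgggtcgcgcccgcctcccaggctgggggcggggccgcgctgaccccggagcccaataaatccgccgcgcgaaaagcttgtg
Adm2: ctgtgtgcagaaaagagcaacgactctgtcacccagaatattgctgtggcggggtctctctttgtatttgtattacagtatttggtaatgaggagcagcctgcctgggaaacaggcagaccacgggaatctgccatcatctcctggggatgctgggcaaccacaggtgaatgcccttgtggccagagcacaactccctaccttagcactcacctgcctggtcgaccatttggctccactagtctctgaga
Wfikkn2: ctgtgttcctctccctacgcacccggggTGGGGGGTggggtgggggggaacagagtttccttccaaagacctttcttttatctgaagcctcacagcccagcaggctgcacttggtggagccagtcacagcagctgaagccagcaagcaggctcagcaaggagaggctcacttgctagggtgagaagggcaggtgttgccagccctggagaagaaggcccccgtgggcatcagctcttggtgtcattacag
Entpd3: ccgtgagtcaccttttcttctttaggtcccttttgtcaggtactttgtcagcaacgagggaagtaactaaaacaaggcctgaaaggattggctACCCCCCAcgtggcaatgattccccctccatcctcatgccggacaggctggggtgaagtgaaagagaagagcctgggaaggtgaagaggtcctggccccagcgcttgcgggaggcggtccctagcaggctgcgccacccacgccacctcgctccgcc

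Neither motif is spelled in the windows of *Slc5a5* and *Adm2*, which says only that these letters are not there. The core begins 222 bases before the start of *Wfikkn2* and 157 bases before that of *Entpd3*. It was in 446 of 32851 RefSeq windows of this length (1.36%), and by gene in 229 of 12720 genes tested that matched by symbol (1.80%), in 18 of 790 with a reduced rise (2.28%), in 10 of 385 with a reduced fall (2.60%) and in 1 of 154 with a greater rise. The cAMP response element was in 508 of 32851 windows (1.55%), and by gene in 2.84% of those tested and 2.03% of those with a reduced rise. *Entpd3*, an ectonucleotidase gene, was at 13.1, 13.9, 13.5 and 13.4 CPM in WT mice on LID against 4.50–5.35 CPM in the same genotype on ND, and at 3.57–7.42 and 4.11–4.79 CPM on the corresponding diets without GLIS3. The WT(LID) mice alone were high (interaction -1.69, SE 0.24, adjusted p = 3.40e-04). *Wfikkn2*, whose protein binds growth factors of the TGF-beta family, differed on ND, with 513–821 CPM without GLIS3 against 68.8, 65.5, 275 and 75.8 CPM in WT mice on ND, where mouse 3 was high. On LID it was at 371–389 CPM in WT and 533–668 CPM in *Glis3*-Pax8Cre mice. Its interaction of -1.79 (SE 0.53, adjusted p = 0.0397) was called in 3 of 16 fits that each left out 1 mouse.

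In the list of genes for iodide handling, iodination and hormone export, all called members lay below 0. *Duoxa2* and *Duox2* were called beside *Slc5a5*. *Duoxa2*, the maturation factor of the hydrogen peroxide-producing oxidase, rose in WT mice from 64.9 ± 14.4 CPM to 113 ± 1.87 CPM and fell without GLIS3 from 69.3 ± 16.4 CPM to 45.3 ± 5.67 CPM (SD, n = 4), with an interaction of -1.41 (SE 0.23, adjusted p = 0.00101). The oxidase gene *Duox2* had an interaction of -0.92 (SE 0.26, adjusted p = 0.0341), and the call was lost in 9 of 16 fits that each left out 1 mouse.

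The members of this list that follow were not called. *Slc26a4*, the pendrin gene of apical iodide efflux, rose from 0.484–1.22 to 4.82–7.42 CPM in WT mice and from 0.196–0.469 to 1.04–1.25 CPM without GLIS3. The genotypes did not overlap on either diet, and the interaction of -1.13 (SE 0.39, adjusted p = 0.0739) was called without WT(ND) mouse 3, without *Glis3*-Pax8Cre(ND) mouse 4 and by DESeq2 and limma voom. *Tg*, the thyroglobulin gene, had an interaction of -0.46 (SE 0.33, adjusted p = 0.398), *Iyd*, the iodotyrosine deiodinase gene, -0.32 (SE 0.18, adjusted p = 0.281), and the chloride channel gene *Ano1* -0.74 (SE 0.40, adjusted p = 0.267). Of these, *Iyd* was called by limma voom and without both ND libraries that stood apart, and *Ano1* without WT(ND) mouse 4, at -1.20. The 95% interval ran from -0.87 to 0.33 for the iodide transporter gene *Slc26a7*. For *Duox1* and *Duoxa1*, the paralogs of *Duox2* and *Duoxa2*, the interactions were 1.10 (SE 0.58, adjusted p = 0.248) and 0.95 (SE 0.43, adjusted p = 0.175), and fell to 0.33 and 0.44 without WT(ND) mouse 3, whose 22.6 and 22.4 CPM stood against 4.56–7.41 and 6.98–9.46 CPM in the other WT(ND) mice. For *Slc5a8* and *Slc16a10* the values were 0.65 (SE 0.46, adjusted p = 0.403) and 0.56 (SE 0.39, adjusted p = 0.399). *Slc5a8* was called without WT(ND) mouse 3 (0.94, adjusted p = 0.00196), and *Slc16a10* without *Glis3*-Pax8Cre(ND) mouse 4 (1.01, adjusted p = 0.0145), without the thymocyte-rich libraries and by limma voom. Of the deiodinase and transport genes, 1 of 9 was called (11.1%, against 7.41% of all genes tested below 0), the type 1 deiodinase gene *Dio1*, which makes T3 from T4. It rose from 314–369 to 1074–1181 CPM in WT mice and from 249.9–359 to 401–495 CPM without GLIS3, and the WT(LID) mice stood above all others (interaction -1.20, SE 0.16, adjusted p = 1.62e-04).

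None of 7 thyroid transcription factor genes was called by edgeR, by DESeq2 or by limma voom, and 1 had an unadjusted p under 0.05. The interactions were 0.17 (SE 0.20, adjusted p = 0.646) for *Nkx2-1*, -0.08 (SE 0.27, adjusted p = 0.888) for *Foxe1* and 0.67 (SE 0.37, adjusted p = 0.267) for *Pax8*, whose locus carries the Cre insertion in *Glis3*-Pax8Cre mice. The value for *Pax8* was 0.17 without WT(ND) mouse 3, the mouse with 996 CPM, and 0.0457 with *Glis3*-Pax8Cre(ND) mouse 4 left out as well. Of 21 genes of the TSH receptor and cAMP pathway only *Prkar2b*, a regulatory subunit of protein kinase A, was called (4.76%, against 4.43% of all genes tested above 0). It had 206–249 CPM on LID against 74–104 CPM on ND without GLIS3, and 98.96–132 and 75.4–188 CPM in the WT groups (interaction 1.56, SE 0.34, adjusted p = 0.00842). The WT(ND) mice spread over a wide range for this gene, with mice 2 and 4 high.

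**Figure D3:**
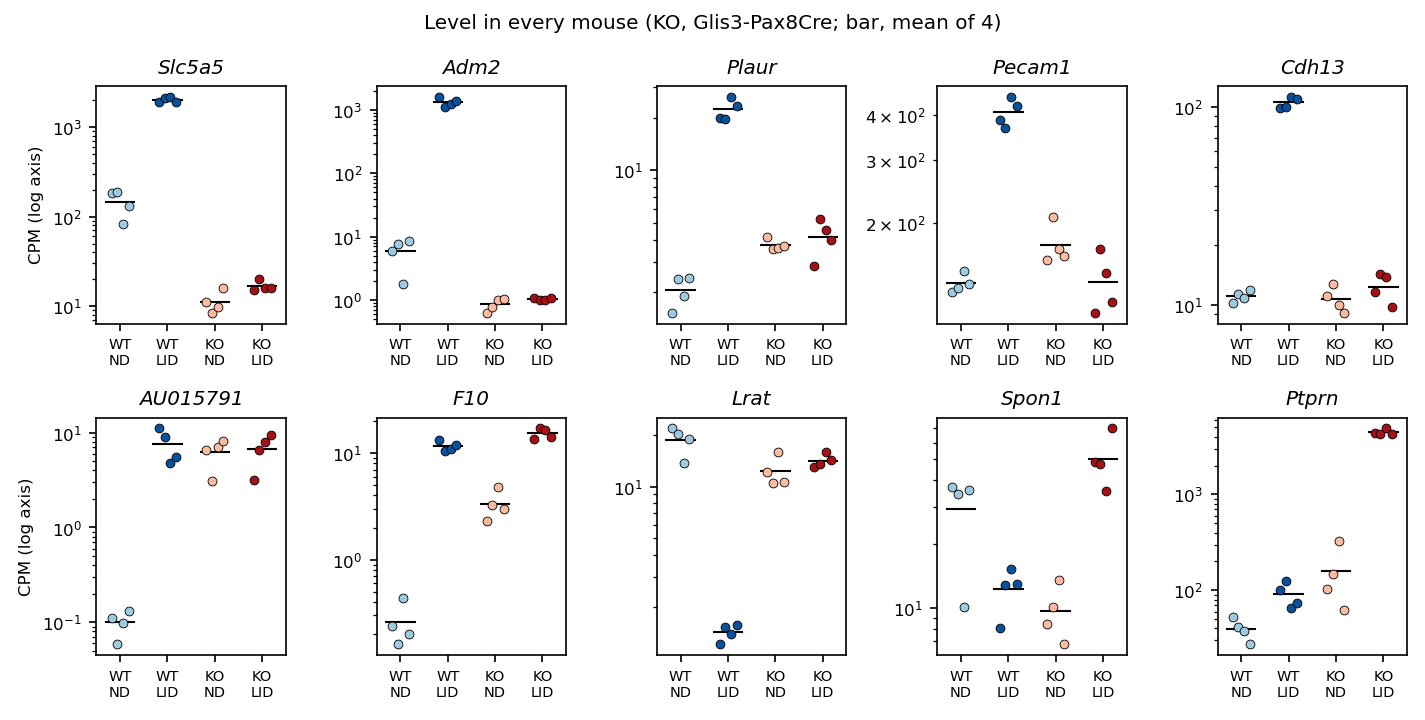
Level of 10 genes in every mouse in CPM on log axes, with the mean of 4 mice as a bar, for WT and then for *Glis3*-Pax8Cre (KO) mice, each on ND and on LID. *Slc5a5*, *Adm2*, *Plaur*, *Pecam1* and *Cdh13* are high in WT(LID) mice alone, *AU015791* is low in WT(ND) mice alone, and *Ptprn* is high in *Glis3*-Pax8Cre(LID) mice alone.

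Blood vessel genes had the highest share called below 0 of the 48 lists. Of 14 endothelial markers, 13 were called, all below 0 and all 14 with a negative value, against 7.41% of all genes tested. Their median response was 1.26 in WT and -0.09 in *Glis3*-Pax8Cre mice, with a median interaction of -1.20 against -0.01 for all genes. The summed markers were at 818–1033 CPM on ND and 2502–2748 CPM on LID in WT mice, against 987–1482 and 942–1431 CPM in *Glis3*-Pax8Cre mice. The WT(LID) mice lay above all others without overlap, and the other 3 groups overlapped. *Pecam1*, the adhesion molecule CD31, measured 129, 132, 147 and 135 CPM in the WT mice on ND and 387, 366, 448 and 424 CPM in those on LID. Mice without GLIS3 had 157, 207, 169 and 162 CPM on ND and 112, 169, 145 and 120.4 CPM on LID. The largest interaction among the markers was that of *Eng*, the TGF-beta co-receptor endoglin, at -2.42 (SE 0.18, adjusted p = 1.71e-06), and the VE-cadherin gene *Cdh5* had -1.999 (SE 0.22, adjusted p = 2.78e-05). In bulk RNA, fewer cells of a type and less RNA per cell cannot be told apart.

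Of 20 angiogenic ligands and receptors, which carry signals to and from endothelium, 10 were called, all below 0, against 7.41% of all genes tested. The other 10 were not called, 3 of the 20 had a value above 0, and the median interaction was -0.63. Receptors made up 7 of them, the angiopoietin receptor gene *Tek* (interaction -1.57, SE 0.17, adjusted p = 2.41e-05), *Tie1* (-1.52), the VEGF receptor genes *Flt1* (-1.13), *Kdr* (-1.005) and *Flt4* (-1.59), the apelin receptor gene *Aplnr* (-1.66) and *Notch1* (-1.08). Ligands were the tip-cell genes *Angpt2* (-1.80) and *Apln* (-2.08) and *Vegfa* (-0.55). *Vegfa* went from 1014–1274 to 1272–1624 CPM in WT mice, against 987–1195 and 895–1112 CPM without GLIS3. Its groups overlapped in part, its adjusted p was 0.0336, and the call was lost in 10 of 16 fits that left out 1 mouse. *Aplnr* rose in WT mice by 0.63 and fell without GLIS3, with a response of -1.03.

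The receptor for adrenomedullin 2 is the calcitonin receptor-like receptor with a receptor activity-modifying protein, and these genes were called together with their ligand. Of 8 genes of this family, 4 were called, all below 0, against 7.41% of all genes tested, with a median of -1.25. *Calcrl*, the receptor itself, measured 32.01, 29.1, 35.6 and 33.8 CPM in WT mice on ND, 84.7, 63.4, 63.2 and 75.9 CPM in those on LID, and 37.8–55.2 and 37.8–50.7 CPM without GLIS3. Its WT(LID) mice were above all others. *Ramp3* rose in WT mice from 8.99–13.5 to 45.5–54.96 CPM, and was at 13.4–20.9 and 11.9–21.7 CPM without GLIS3, with an interaction of -2.27 (SE 0.25, adjusted p = 3.62e-05), and *Ramp2* had -1.29 (SE 0.24, adjusted p = 0.00268). These receptor genes are abundant in endothelium, and their part in the change of the endothelial markers was not tested.

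Of 11 markers of pericytes and smooth muscle, 4 were called (36.4%, against 7.41% of all genes tested), all below 0 (*Acta2* -2.23, *Tagln* -1.59, *Rgs5* -1.42 and *Notch3* -1.27). All 11 had a negative value, with a median of -0.90. Their sum was 532–689 CPM on ND and 1190–1730 CPM on LID in WT mice, against 729.9–946 and 697–922 CPM in *Glis3*-Pax8Cre mice. Of 10 fibroblast markers none was called by edgeR, DESeq2 or limma voom, and 1 had an unadjusted p under 0.05. Their values ran from -1.98 to 0.74 with 3 below 0, and the median was 0.21.

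**Figure D4:**
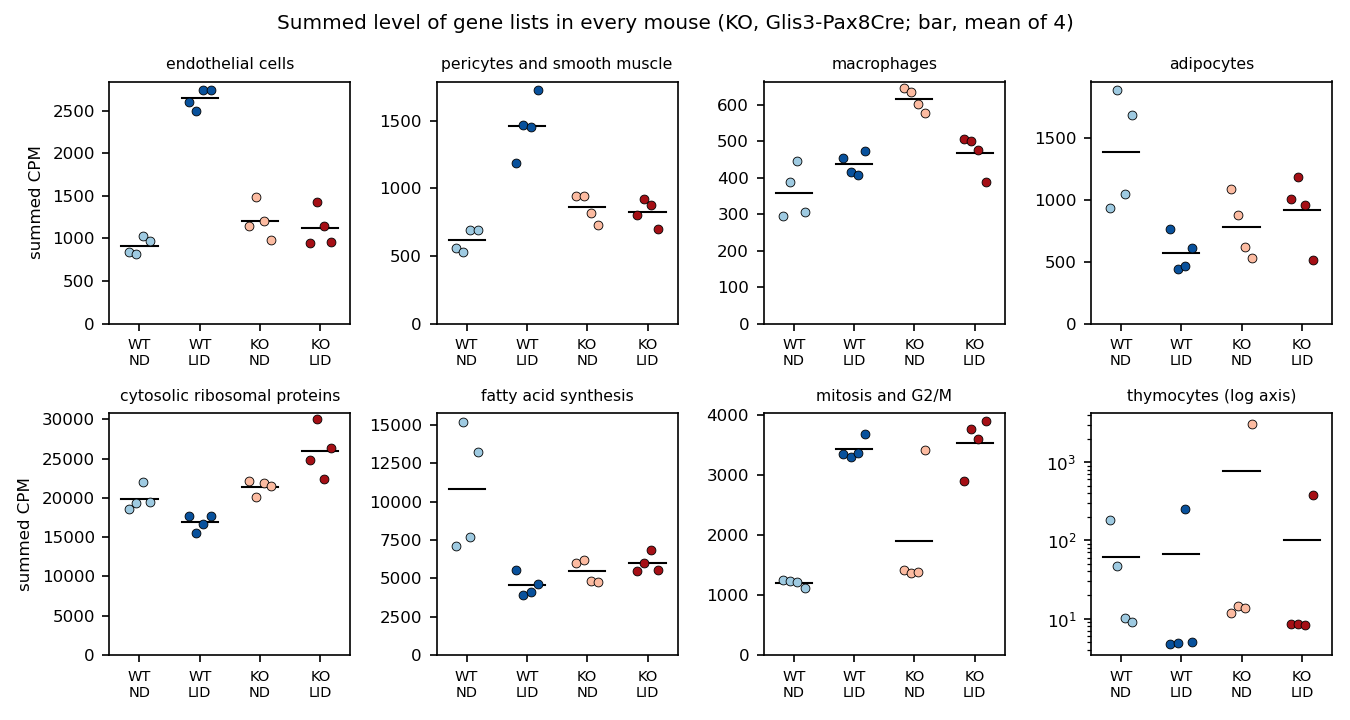
Summed CPM of 8 gene lists in every mouse, with the mean of 4 mice as a bar. Endothelial markers reach 2502–2748 CPM in WT(LID) and stay under 1500 CPM in every other mouse, ribosomal protein genes are lowest in WT(LID) and highest in *Glis3*-Pax8Cre(LID), and *Glis3*-Pax8Cre(ND) mouse 4 is high in both the mitosis genes and the thymocyte markers.

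Lists of matrix genes had medians below 0. Of all genes tested, 7.41% were called below 0 and 4.43% above 0. Of 25 collagen genes, 10 were called below 0 and 3 above 0, with a median interaction of -0.67, and without *Glis3*-Pax8Cre(ND) mouse 4 the number below 0 was 16, and with a replicate block in the *Glis3*-Pax8Cre mice 15. Basement membrane chains of the widespread type led the first group. *Col4a1* rose from 482–594 to 2148–2784 CPM in WT mice and from 498–837 to 695–1110 CPM without GLIS3 (interaction -1.70, SE 0.24, adjusted p = 3.14e-04), and its partner *Col4a2* had -1.39. *Col8a1* (-1.51), *Col13a1* (-1.48) and *Col6a2* (-1.07) were called too, while *Col18a1*, the source of endostatin, was not, at -0.77 (SE 0.27, adjusted p = 0.0789), though it was by DESeq2 and limma voom. The 3 collagens above 0 were *Col4a3* (1.41), *Col4a4* (1.23) and *Col4a6* (1.12), the chains of specialised basement membranes. Laminins, nidogens and perlecan had 6 of 16 called, all below 0, among them the linker genes *Nid1* (interaction -1.24, SE 0.16, adjusted p = 1.76e-04) and *Nid2* (-1.56) and the vascular laminin chain *Lama4* (-1.13), with *Sparc* at -0.86. The laminin gene *Lamb1* was an exception, with responses of 1.40 and 1.39 and an interaction of -0.01 (95% interval -0.49 to 0.47).

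Matrix receptors and proteases held some of the largest interactions. *Itga2*, the collagen-binding integrin subunit, measured 0.603, 0.704, 0.692 and 0.735 CPM in WT mice on ND, 7.42, 11.7, 12.6 and 12.2 CPM in those on LID, and 0.487–1.004 and 0.531–1.05 CPM without GLIS3. Only WT(LID) mice were above 1.1 CPM, and the interaction was -3.78 (SE 0.34, adjusted p = 6.22e-06). In all, 6 of 20 integrin genes were called below 0 (30%, against 7.41% of all genes tested) and 1 above 0 (5%, against 4.43%). *Itga5* was at -1.94, *Itgb3* at -1.99 and *Itga9* at -1.43. Of 25 proteases, inhibitors and crosslinkers, 9 were called below 0 (36%) and 1 above 0 (4%). *Plaur*, the receptor of the urokinase plasminogen activator, measured 1.53, 2.38, 1.89 and 2.41 CPM in WT mice on ND, 19.9, 19.6, 26.3 and 23.3 CPM in those on LID, and 3.56–4.14 and 2.81–5.29 CPM without GLIS3 (interaction -3.28, SE 0.26, adjusted p = 2.57e-06). Its ligand gene *Plau* (-1.70) and the aggrecanase gene *Adamts9* (-1.65) followed. *Timp1*, an inhibitor of metalloproteinases, had a different course, with 5.71–7.84 CPM without GLIS3 against 2.36–2.95 CPM in WT mice on ND and overlapping levels on LID (6.24–9.54 and 7.31–10.5 CPM). Matricellular genes had 5 of 18 called (27.8%), all below 0, among them *Vcan* (-1.24), *Thbs2* (-0.92), *Postn* (-1.33) and *Nov* (-0.93). The number was 3 without *Glis3*-Pax8Cre(ND) mouse 1 or 2 or WT(LID) mouse 4.

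Several single follicular and stromal genes had the same shape. *Cdh13*, a cadherin anchored by a lipid, rose from 10.2–11.9 to 99.5–113 CPM in WT mice and was at 9.10–12.8 and 9.70–14.2 CPM without GLIS3 (interaction -3.06, SE 0.17, adjusted p = 1.48e-07). *Cdh16*, a cadherin of thyroid and kidney epithelium, was at 1688, 1594, 1632 and 1660 CPM in WT mice on LID and between 421 and 852 CPM in all other mice (interaction -1.63, SE 0.23, adjusted p = 3.27e-04). *Car15*, a carbonic anhydrase gene, was at 20.5, 42.1, 31.7 and 22.9 CPM in WT mice on LID, and at 2.79–3.43, 2.57–2.99 and 1.32–2.46 CPM in WT mice on ND and in *Glis3*-Pax8Cre mice on ND and on LID, with an interaction of -3.88 (SE 0.31, adjusted p = 2.52e-06). *Padi2*, which turns arginine into citrulline in proteins, was at 77.6, 68.2, 98.4 and 84.3 CPM in WT mice on LID and at 3.84–6.01 CPM without GLIS3 on the same diet, while the ND groups overlapped (interaction -3.58, SE 0.48, adjusted p = 2.79e-04). *Sod3*, the extracellular superoxide dismutase gene, rose in both genotypes but to 1797–1950 CPM in WT and 250.3–323 CPM in *Glis3*-Pax8Cre mice (interaction -2.08, SE 0.24, adjusted p = 5.59e-05). Among 23 antioxidant genes 3 were called below 0, *Sod3*, *Srxn1* (-1.13) and *Hmox1* (-0.75), and 2 above 0, including *Gpx3* (1.19), which fell in WT mice. The shares were 13% below 0 and 8.7% above 0, against 7.41% and 4.43% of all genes tested.

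Growth factor pathways had smaller shares called below 0 than the matrix lists. Of all genes tested, 7.41% were called below 0 and 4.43% above 0. In the TGF-beta, BMP and activin list 6 of 26 genes were called below 0 (23.1%) and 1 above 0 (3.85%). Those below 0 were led by *Bmp6* (interaction -1.88, SE 0.27, adjusted p = 2.94e-04), *Inhba* (-1.71), *Tgfb1* (-0.81) and the inhibitor *Smad7* (-0.99). With both ND libraries that stood apart left out, 10 were called below 0. For Wnt signalling it was 6 of 29 below 0 (20.7%) and 1 above 0 (3.45%). The number below 0 was 3 without *Glis3*-Pax8Cre(LID) mouse 4 and 4 without WT(ND) mouse 2 or WT(LID) mouse 4. The member above 0 was *Wnt5b*, a ligand of non-canonical signalling, with 6.54, 7.13, 14.6 and 8.68 CPM in WT mice on ND, 2.03, 3.14, 3.61 and 4.35 CPM in those on LID, and 11.1–25.7 and 28.7–30.6 CPM without GLIS3. It fell in WT mice, had a response of 0.53 without GLIS3 that was not called, and the *Glis3*-Pax8Cre groups lay above WT on LID (interaction 2.03, SE 0.40, adjusted p = 0.00458). *Dkk2* (-0.94), *Fzd4* (-1.04) and *Wnt4* (-0.52) were below 0. Of 11 Hedgehog genes, *Dhh*, a ligand, was called at -2.14 (SE 0.30, adjusted p = 2.94e-04), and *Gli2*, a transcription factor related to GLIS3, at -0.99 (SE 0.21, adjusted p = 0.00662). *Gli2* was higher without GLIS3 on ND, at 61.04–78.5 against 17.8–29.2 CPM. On LID it was at 94.7–146 against 79.1–95.8 CPM, and these groups overlapped at their edges.

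Inflammatory genes split by the diet on which they differed. Chemokines had 8 of 27 called below 0 (29.6%, against 7.41% of all genes tested) and 1 above 0 (3.7%, against 4.43%). With the library richest in thymocyte markers of each group left out, 5 were called below 0. *Ccl2*, which recruits monocytes, was at 0.238, 0.425, 0.382 and 0.245 CPM in the WT mice on ND and 12.1, 6.79, 7.17 and 9.95 CPM in those on LID. The corresponding *Glis3*-Pax8Cre levels were 0.941, 0.750, 0.343 and 0.660 CPM on ND and 2.23, 2.33, 2.21 and 0.984 CPM on LID. It rose in both genotypes, and only WT(LID) mice were above 5 CPM (interaction -3.26, SE 0.47, adjusted p = 3.30e-04). *Ccl7* followed it, with -2.42 (SE 0.36, adjusted p = 4.49e-04). *Cxcl17* (interaction -2.44, SE 0.47, adjusted p = 0.00311) was higher without GLIS3 on ND, at 0.981–2.45 against 0.0587–0.164 CPM, and higher on LID, at 5.48–12.8 against 3.58–5.33 CPM. *Cxcl16*, the chemokine above 0 (interaction 0.97, SE 0.14, adjusted p = 2.98e-04), fell in WT mice and had a response of -0.11 in *Glis3*-Pax8Cre mice that was not called. Macrophage markers had 5 of 12 called (41.7%, against 7.41% of all genes tested), all below 0, with a median of -0.62. Their sum was 295–446 CPM on ND and 406–472 CPM on LID in WT mice, against 576–646 and 389–507 CPM in *Glis3*-Pax8Cre mice, and the groups overlapped on LID and not on ND. The count was 9 without WT(ND) mouse 3 and 3 under scaling by library size alone or without the thymocyte-rich libraries.

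A further set of reduced rises started from a higher level on ND. *AU015791* stood at 0.112, 0.0587, 0.0989 and 0.130 CPM in the WT mice on ND and 11.1, 9.11, 4.78 and 5.55 CPM in those on LID. *Glis3*-Pax8Cre glands held 6.59, 3.09, 6.99 and 8.21 CPM on ND and 3.17, 6.52, 8.03 and 9.51 CPM on LID. The WT(ND) mice were far below every other mouse, which overlapped one another, and the interaction was -6.03 (SE 0.57, adjusted p = 1.05e-05). *C230072F16Rik* was highest in *Glis3*-Pax8Cre mice on ND, at 9.35, 14.1, 12.96 and 9.37 CPM, and rose in WT mice from 0.687, 0.323, 2.88 and 0.553 CPM, with mouse 3 high, to 2.55–5.64 CPM, while it fell to 2.74–4.71 CPM without GLIS3 (interaction -3.67, SE 0.73, adjusted p = 0.00491). *F10*, the gene of coagulation factor X, rose in both genotypes, from 0.161–0.438 to 10.5–13.2 CPM in WT mice and from 2.32–4.76 to 13.4–17.1 CPM without GLIS3 (interaction -3.33, SE 0.35, adjusted p = 2.28e-05). For *AU015791* and *F10* the genotype difference on LID was not called, at -0.17 and 0.39.

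Cell cycle genes lay mostly below 0 while few of them passed the edgeR test, and other methods called more. All 54 tested genes of mitosis and G2/M had an interaction below 0, with a median of -1.22 and median responses of 2.97 in WT and 1.495 in *Glis3*-Pax8Cre mice, yet 4 were called (7.41% of the list, which equals the share of all genes). In the list of DNA replication and S phase, 5 of 43 were called below 0 and 1 above 0, 39 of the 43 values were below 0 and 4 above, and the median was -0.73. Summed mitosis genes went from 1116–1242 to 3298–3682 CPM in WT mice. The *Glis3*-Pax8Cre mice on ND had 1411, 1360, 1389 and 3415 CPM, and those on LID 2896–3891 CPM. The genotypes overlapped on LID, and the high mouse on ND is the one rich in thymocyte markers. Without this mouse the median interaction of the mitosis list was -0.45, with 13 called and 6 of 54 above 0, and that of the S phase list -0.39, with 13 called below 0 and 7 of 43 values above 0. With a replicate block in the *Glis3*-Pax8Cre mice, whose equal numbers deviated together, 10 mitosis and 18 S phase genes were called below 0. DESeq2 called 17 of 49 mitosis and 16 of 41 S phase genes below 0, and limma voom 12 of 54 and 11 of 43. With the thymocyte score as a covariate the numbers were 17 and 19. Over the 16 fits that left out 1 mouse, either number ran from 2 to 13, with 7 to 13 mitosis genes without a *Glis3*-Pax8Cre(ND) mouse and 2 to 3 without any other mouse. *Anln*, a cytokinesis gene, measured 8.21, 9.05, 11.3 and 9.69 CPM in WT mice on ND, 16, 19.8, 17.5 and 30.5 CPM in *Glis3*-Pax8Cre mice on ND, and 72.7–82.02 and 55.8–84.2 CPM in WT and *Glis3*-Pax8Cre mice on LID (interaction -1.23, SE 0.24, adjusted p = 0.00409). *Ccnb1* and *Ccnb2*, the mitotic cyclin genes, were not called, at -1.34 (SE 0.65, adjusted p = 0.204) and -1.498 (SE 0.58, adjusted p = 0.11), although DESeq2 called *Ccnb2*. *Cdca2* was called, at -1.09 (SE 0.33, adjusted p = 0.0418), with the call lost in 11 of 16 fits that left out 1 mouse.

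Reduced falls were led by *Lrat*, *Spon1*, *Slc24a3*, *Acaa1b*, *Ager* and *Aqp7*. *Lrat*, which stores retinol as esters, was at 21.8, 20.2, 13.8 and 19.02 CPM in the WT mice on ND and 1.21, 1.53, 1.38 and 1.57 CPM in those on LID. Without GLIS3 the values were 12.1, 10.5, 15.8 and 10.6 CPM on ND and 12.9, 13.5, 15.9 and 14.4 CPM on LID. Only WT(LID) mice were low, and the interaction was 3.92 (SE 0.23, adjusted p = 1.48e-07). *Ager*, which encodes the receptor for advanced glycation end products, was at 133, 165, 164 and 147 CPM in WT mice on LID and between 367 and 1249 CPM in every other mouse (interaction 2.497, SE 0.30, adjusted p = 7.83e-05). *Spon1*, the gene of F-spondin, changed in opposite directions. It was at 36.9, 34.4, 10.1 and 35.8 CPM in WT mice on ND, where mouse 3 was low, and at 8.03–15.2 CPM in WT(LID), but at 6.76–13.5 CPM on ND and 48.8, 47.7, 35.5 and 70.04 CPM on LID without GLIS3, with an interaction of 3.63 (SE 0.51, adjusted p = 3.81e-04). *Slc24a3*, an exchanger of sodium, potassium and calcium, did likewise, with responses of -1.91 and 1.14 (interaction 3.05, SE 0.35, adjusted p = 6.43e-05), as did *Acaa1b*, a peroxisomal thiolase gene, with -1.16 and 1.59 (interaction 2.75, SE 0.45, adjusted p = 9.21e-04). *Erbb4*, a receptor of neuregulins, fell in WT mice to 6.74–9.38 CPM and was at 18.6–36.4 CPM without GLIS3 on LID (interaction 1.27, SE 0.32, adjusted p = 0.0187).

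Ribosomal protein genes made up the largest list above 0. Of 82 genes of cytosolic ribosomal proteins, 54 were called, all above 0, against 4.43% of all genes tested, and 80 of 82 had a positive value. Their summed level was 18570–22020 CPM on ND and 15520–17760 CPM on LID in WT mice, against 20130–22170 and 22400–30090 CPM in *Glis3*-Pax8Cre mice. The WT(LID) mice were the lowest and the *Glis3*-Pax8Cre(LID) mice the highest, without overlap between them. The median response was -0.24 in WT and 0.29 in *Glis3*-Pax8Cre mice and the median interaction 0.52. *Rps19* was at 180.3, 156, 171 and 189 CPM in WT and 264, 339, 242 and 276 CPM in *Glis3*-Pax8Cre mice on LID, with an interaction of 0.94 (SE 0.13, adjusted p = 2.76e-04), and *Rpl22*, *Rps23* and *Rps6* had 0.59, 0.64 and 0.61. The sign held under every scaling run, with medians from 0.51 to 0.55. The number called was 31 with library size alone, 28 without the thymocyte-rich libraries, and 34 without WT(LID) mouse 2, and 35 without WT(LID) mouse 3 or without WT(ND) mouse 3. These genes have many near-identical processed pseudogenes, so their counts depend on how reads with several matches were treated. Subunits of oxidative phosphorylation leaned the same way with 69 of 75 above 0, but the median was 0.28 and 1 was called, the brown fat and heart subunit gene *Cox8b*.

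Genes of fatty acid synthesis were called above 0 in 8 of 13 cases, with a median of 1.12, against 4.43% of all genes tested. *Srebf1*, the transcription factor that controls them, was at 186, 167, 191 and 202 CPM in the WT mice on ND and 297, 277, 280.5 and 282 CPM in those on LID. The *Glis3*-Pax8Cre mice had 208, 197, 194 and 201 CPM on ND and 606, 570.1, 604 and 770.5 CPM on LID. It rose in both genotypes and more without GLIS3 (interaction 1.06, SE 0.13, adjusted p = 7.34e-05), with no overlap between the LID groups, and the desaturase gene *Scd2* had the same order (interaction 1.12, SE 0.15, adjusted p = 1.98e-04). *Elovl6*, a fatty acid elongase gene, went from 157–363 to 178–214 CPM in WT mice, which was not called, and rose from 106–132 to 254–345 CPM without GLIS3 (interaction 1.61, SE 0.26, adjusted p = 8.96e-04), and *Fasn* (1.39) and *Acaca* (1.16), which fell in WT mice, were called too. The summed list was at 7136, 15210, 7722 and 13250 CPM in WT mice on ND, with mice 2 and 4 high, and lower in all others. All 9 adipocyte markers had values above 0 as well. Of these 5 were called, all above 0 (*Adipoq* 1.53, *Plin1* 1.59, *Cidec* 1.55, *Cidea* 2.36 and *Retn* 1.52), and their sum was 936, 1888, 1049 and 1687 CPM in WT mice on ND and 439–768 CPM in those on LID, against 531–1086 and 514–1184 CPM without GLIS3. The number of markers called was 3 without WT(LID) mouse 2 or 3. WT(ND) mice 2 and 4, the richest in these markers, were also the highest of all mice for *Aqp7*, the glycerol channel gene of fat cells, at 16.3 and 12.01 CPM. The part of fat cells in the list was not tested, and its count was 5 without WT(ND) mouse 2 or 4, *Glis3*-Pax8Cre(ND) mouse 3 or 4, WT(LID) mouse 2, 3 or 4, or *Glis3*-Pax8Cre(LID) mouse 3. Cholesterol synthesis had 2 called in each direction out of 24 (8.33%, against 7.41% of all genes tested below 0 and 4.43% above 0). Among them were *Insig1*, which holds back this pathway, at 1.499 (SE 0.24, adjusted p = 7.52e-04), *Lss* at 0.86 and the cholesterol carrier gene *Stard4* at -1.18.

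Greater rises without GLIS3 were led by *Cck*, *Ptprn*, *Aqp5*, *Kng2*, *Slc1a1* and *Sphk1*. *Ptprn*, a protein of the membrane of hormone granules, was at 52.6, 41.2, 37.6 and 27.4 CPM in the WT mice on ND and 101, 125, 65.1 and 74.1 CPM in those on LID. In the absence of GLIS3 the mice had 103, 149.7, 325 and 62.4 CPM on ND and 4392, 4223, 4891 and 4307 CPM on LID. The *Glis3*-Pax8Cre(LID) mice were more than 10-fold over every other mouse, and the interaction was 3.59 (SE 0.56, adjusted p = 7.36e-04). *Cck*, the gene of the peptide cholecystokinin, was at 0.855, 0.513, 1.07 and 0.560 CPM in the WT mice on ND and 0.991, 0.703, 0.611 and 0.750 CPM in those on LID. Mice without GLIS3 had 2.45, 2.38, 4.79 and 1.80 CPM on ND and 39.4, 58.6, 40.7 and 50.6 CPM on LID, with an interaction of 3.99 (SE 0.42, adjusted p = 2.78e-05) and WT groups that overlapped. Both genes belong to a list of 18 neuroendocrine secretory genes, in which 3 were called above 0 (with *Pcsk1*, 0.81, which fell in WT mice) and 1 below 0 (*Nts*, -2.16). The shares were 16.7% above 0 and 5.56% below 0, against 4.43% and 7.41% of all genes tested. Of the 18 values 17 lay above 0, with a median of 0.56. C-cell markers gave no call among 5 by edgeR or DESeq2 and 1 by limma voom, and 1 had an unadjusted p under 0.05. Their sum without GLIS3 was 3531–6000 CPM on ND and 1502–3439 CPM on LID, where *Ptprn* and *Cck* were high. Which cells held the *Ptprn* and *Cck* transcripts was not tested.

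*Slc1a1*, a glutamate and cysteine transporter gene, rose in both genotypes, from 5.95–11.8 to 13.1–25.6 CPM in WT mice and from 5.26–8.22 CPM to 88.2, 69.02, 65.8 and 87.3 CPM without GLIS3 (interaction 2.51, SE 0.32, adjusted p = 1.26e-04). *Sphk1*, a sphingosine kinase gene, also rose in both, to 4.13–6.39 CPM in WT and 18.96–38.2 CPM in *Glis3*-Pax8Cre mice (interaction 2.28, SE 0.54, adjusted p = 0.0132). The water channel gene *Aqp5* rose without GLIS3 from 14.1–24.4 to 47.5–147 CPM (interaction 2.66, SE 0.46, adjusted p = 0.00177), and its WT groups overlapped. *Kng2*, a kininogen gene with a close paralog in *Kng1* that could share its reads, had an interaction of 2.62 (SE 0.37, adjusted p = 3.15e-04). *Igfbp5*, which binds insulin-like growth factors, rose without GLIS3 to 1162, 1182, 1542 and 1321 CPM, against 311–332 CPM in WT mice on LID (interaction 1.23, SE 0.29, adjusted p = 0.012), while *Igfbp7*, a related protein, was below 0 (interaction -1.42, SE 0.27, adjusted p = 0.00302). Secretoglobin genes of airway epithelium had the largest values of all called genes above 0 (*Scgb3a2* 7.89, *Scgb1a1* 7.74 and *Scgb3a1* 7.04), and rested largely on 1 library. *Scgb1a1* was at 27.8, 0.846, 0.322 and 2.20 CPM in *Glis3*-Pax8Cre mice on LID and under 1 CPM in every other group, and airway markers in mouse 1 of this group summed to 271 CPM against 49.04 to 54.3 CPM in the others. Without this mouse the 3 interactions were 4.48, 4.95 and 4.53, the lowest of any setting, and that of *Scgb1a1* was not called. Over 28 alternatives *Scgb1a1* (adjusted p = 0.0473) lost its call in 21, *Scgb3a2* in 10 and *Scgb3a1* in 4. The list of surfactant and secretoglobin genes had these 3 called above 0 and 1 below 0 of 10 (30% and 10%, against 4.43% and 7.41% of all genes tested). The member below 0 was *Abca3*, a lipid transporter gene of surfactant-making cells, at -0.94 (adjusted p = 0.00365), which kept its call in all 29 alternatives.

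In the class of greater falls, *Snx31*, *Slc12a8*, *Lims2*, *Evpl*, *Nt5e* and *Car4* came first, with interactions from -1.84 to -1.31. *Nt5e*, the ectonucleotidase CD73 that makes adenosine, measured 32.9, 45.1, 45.99 and 22.03 CPM on ND and 11.6, 11.4, 13.9 and 11.5 CPM on LID without GLIS3, against 36.9–57.7 and 34.9–39.8 CPM in the WT groups, which overlapped (interaction -1.31, SE 0.28, adjusted p = 0.00621). *Evpl*, the gene of the junction protein envoplakin, was lower without GLIS3 on either diet and fell further on LID, to 6.15–8.60 CPM from 10.5–14.4 CPM, while WT mice on LID had 40.8–50.8 CPM (interaction -1.35, SE 0.31, adjusted p = 0.00978). *Slc12a8* fell without GLIS3 to 1.27–1.92 CPM, against 10.8–13.7 CPM in WT mice on LID (interaction -1.67, SE 0.43, adjusted p = 0.0199). *Car4*, a carbonic anhydrase on cell surfaces, was at 3.38–5.77 CPM in *Glis3*-Pax8Cre mice on LID and between 7.64 and 10.9 CPM in all other mice (interaction -1.31, SE 0.23, adjusted p = 0.00198), and *Lims2*, a focal adhesion gene, had -1.57 (SE 0.25, adjusted p = 8.30e-04).

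Other pathways showed few or no calls. The shares of all genes tested were 7.41% below 0 and 4.43% above 0. Of 23 genes of ER folding and the unfolded protein response none was called by edgeR, DESeq2 or limma voom, 2 had an unadjusted p under 0.05, and the median responses were 0.56 in WT and 0.75 in *Glis3*-Pax8Cre mice. Among 15 genes of lysosomal proteolysis and thyroglobulin uptake edgeR called none, DESeq2 1 and limma voom 2, with 2 at an unadjusted p under 0.05. For 22 interferon and antigen presentation genes the numbers were none, 1 and 1, with 3 at an unadjusted p under 0.05. Immediate early genes had 3 of 19 called below 0 (*Klf4* -0.82, *Atf3* -1.93 and *Dusp1* -1.27) and *Egr1* above 0 (1.94), with a median of -0.61. Genes of the ATF4 stress response had 2 called below 0, *Atf3* and *Ddit4*, and *Psat1* above 0 (0.81), of 21. In glycolysis and hypoxia *Vegfa* was called below 0 and *Pfkl* above 0 (0.58), of 23. Ribosome biogenesis (1 of 27, *Polr1b*), the circadian clock (1 of 19, *Rora*) and EGF ligands with MAPK feedback (2 of 22, *Phlda1* and *Erbb4*) had calls above 0 alone. Their shares were 3.7%, 5.26% and 9.09%, against 4.43% of all genes tested. The calls of *Polr1b* and *Rora* were each lost in 17 of 29 alternatives. Those of *Pfkl*, *Ddit4* and *Dusp1* were lost in 14, 12 and 10. Calls below and above 0 numbered 1 and 2 of 13 in the IGF system, 3 and 2 of 24 among cadherins, claudins and tight junction genes, and 2 and 1 of 6 among cartilage markers. Parathyroid (4), skeletal muscle (10), thymocyte (11) and erythroid (2) markers gave no call by edgeR, DESeq2 or limma voom and none with an unadjusted p under 0.05, with medians of 0.18, -1.88, -2.97 and -0.69 and a wide spread between libraries.

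**Figure D5:**
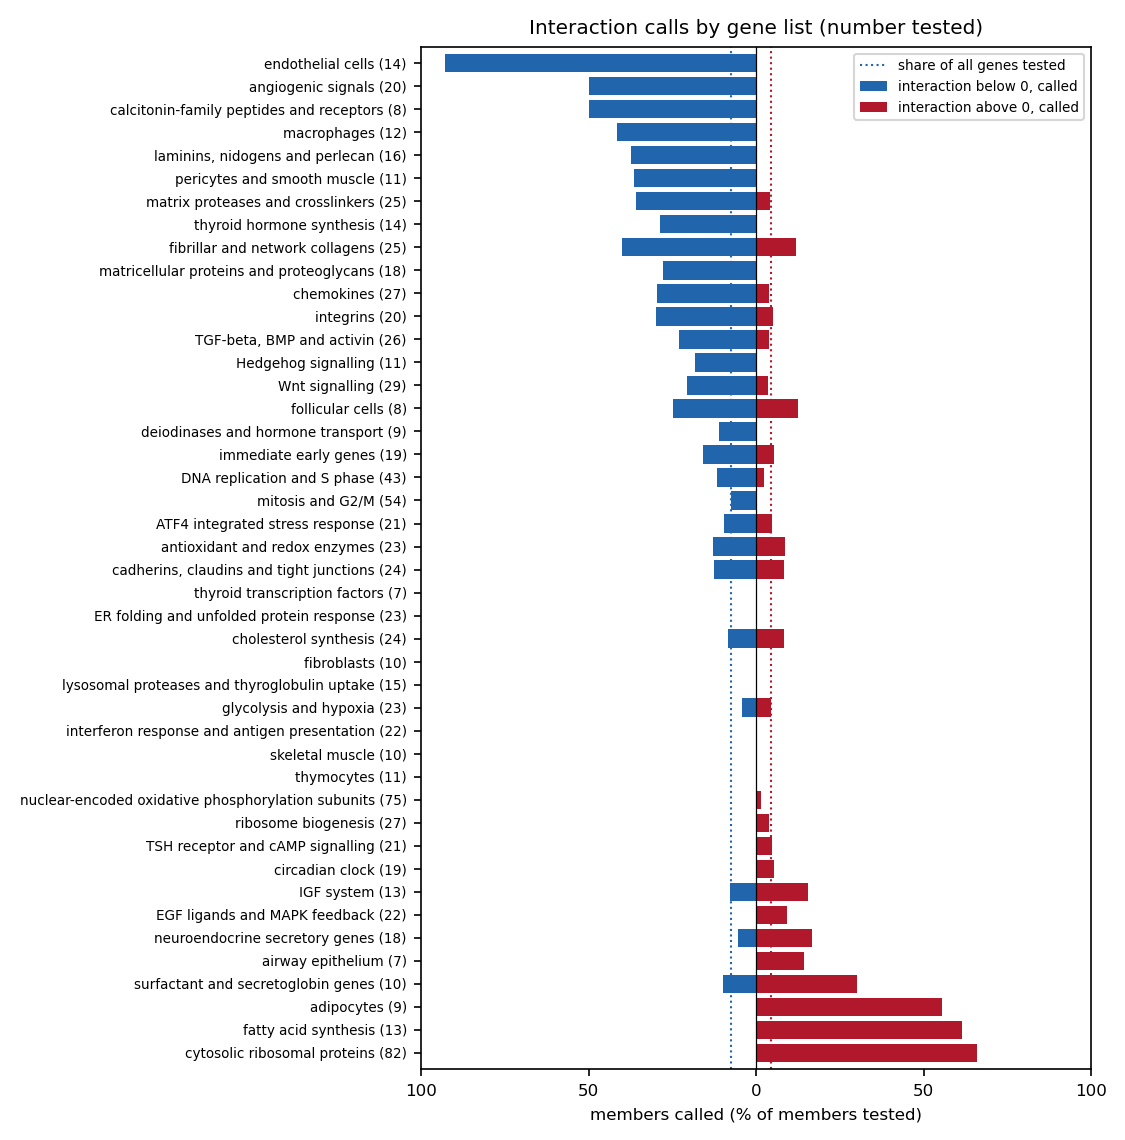
Share of the tested members of each gene list called with an interaction below 0 (left, blue) and above 0 (right, red), in percent, with the number tested in brackets and the share of all genes tested as dotted lines. Endothelial cells reach farthest to the left (13 of 14) and cytosolic ribosomal proteins farthest to the right (54 of 82).

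Many diet responses differed little between the genotypes. In 741 genes the response was called in the same direction in both genotypes, the mean was at least 5 CPM and the 95% interval of the interaction lay within 0.5 of 0, with 431 of them rising and 310 falling. The 6 with the largest responses were *Ggct*, *Lrrk2*, *Galc*, *Lamb1*, *Diaph3* and *Pdia5*, and all rose. *Galc*, a lysosomal enzyme gene, was at 64.8, 60.5, 80.9 and 73.6 CPM in the WT mice on ND and 188, 205, 196 and 192 CPM in those on LID. The corresponding *Glis3*-Pax8Cre levels were 84.2, 96.8, 116 and 82.6 CPM on ND and 259, 259, 306 and 286 CPM on LID. Its responses were 1.48 and 1.55, with an interval of the interaction from -0.27 to 0.40. *Ggct*, an enzyme of glutathione breakdown, rose by 1.75 and 1.63 and was higher without GLIS3 on both diets. *Pdia5*, a protein disulfide isomerase of the ER, rose by 1.36 and 1.31, *Lrrk2*, a kinase gene, by 1.57 and 1.498, and *Diaph3*, a formin gene, by 1.40 and 1.39.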

How the data were processed

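RNA from the whole thyroid glands of 16 mice was sequenced in 4 groups of 4, and groups were taken from the labels. Per the study's methods and the labels, the authors mapped read pairs to mm10 (GRCm38) with STAR 2.5 and deposited raw counts per RefSeq gene, made by featureCounts 1.5.0-p1 of Subread without regard to strand, so that antisense and overlapping genes cannot be told apart. The featureCounts options listed in the study's methods include none for counting reads with several matches. Which of the NextSeq and NovaSeq instruments read which library is not given in the sources used here. No 2 libraries of a group agreed within sampling noise. Totals of 13892352 to 461077969 counts per mouse set the precision, and 3 counts are taken as the floor of detection.

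Counts were analysed with edgeR 4.0.16 in R 4.3.3 (filterByExpr, TMM, robust quasi-likelihood F test, 1 mean per group), with Benjamini-Hochberg adjustment over 16630 genes and a call at an adjusted p under 0.05. The study used DESeq2. It was run as an alternative (1.42.0), with limma voom (3.58.1), other scalings, filters and thresholds, a thymocyte covariate, a replicate block and the omission of each mouse. The model was tested on simulated data. Deviations of same-numbered *Glis3*-Pax8Cre mice on ND and LID had r = 0.21, 0.29, 0.63 and 0.65 for numbers 1 to 4. For same-numbered WT mice r was 0.14, -0.17, 0.07 and 0.10, so the block was also run in *Glis3*-Pax8Cre mice alone.

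Genes named were the 6 largest interactions in each class at a mean of at least 5 CPM that kept their call in all 16 fits without 1 mouse, up to 4 called members with the smallest p of each function list, all thyroid hormone synthesis genes, genes named by the study, and the 6 largest responses whose interaction had a 95% interval within 0.5 of 0. *Wfikkn2* and *Entpd3*, markers in the cell type lists and further list members were named after their values were seen. Some genes that the rule names are not reported here. The members and lists were chosen with earlier results of these data known. Lists are described by counts and medians, with no test of the list. Promoter windows were matched to genes by symbol, and motifs were searched on both strands.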

Additional observations from a re-analysis of the deposited data

Results flagged for a closer look

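The diet response differed between the genotypes for 1969 genes by the test of the interaction, which is the result described above.

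In 18 of 228 group values examined, 1 mouse lay far from the other 3, with its gap divided by the range of the group above the 95% critical value of the Dixon test for 4 values, and chance gives about 1 in 20. WT(ND) mouse 3 accounted for 4 of them, high for *C230072F16Rik* (ratio 0.858, 2.88 against 0.323 to 0.687 CPM), *Duox1* (0.842, 22.6 against 4.56 to 7.41 CPM) and *Duoxa1* (0.84, 22.4 against 6.98 to 9.46 CPM), and low for *Spon1* (0.905, 10.1 against 34.4 to 36.9 CPM). *Glis3*-Pax8Cre(ND) mouse 4 accounted for 5. It was high for *Padi2* (0.889, 14.8 against 4.29 to 5.46 CPM), for *Slc16a10* (0.883) and for the summed thymocyte markers (0.999, 3075 against 11.7 to 14.3 CPM), and low for *Slc24a3* (0.854) and *Ager* (0.843, 367 against 690 to 750 CPM). The values examined did not cover every gene and list named above. The high *Pax8* of WT(ND) mouse 3, the high mitosis genes of *Glis3*-Pax8Cre(ND) mouse 4 and the high *Scgb1a1* of *Glis3*-Pax8Cre(LID) mouse 1 are not in these counts. The interactions of *C230072F16Rik*, *Padi2*, *Spon1*, *Slc24a3* and *Ager* were called in every fit that left out 1 mouse, but they were named on that condition. Their calls therefore do not measure the effect of these mice.

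In the LID groups the values were smaller departures for *Nt5e* in WT(LID) mouse 4 (0.887, 34.9 against 39.3 to 39.8 CPM) and in *Glis3*-Pax8Cre(LID) mouse 3 (0.95, 13.9 against 11.4 to 11.6 CPM), and larger ones for *Slc26a7* in *Glis3*-Pax8Cre(LID) mouse 2 (0.86, 302 against 662 to 720.1 CPM) and *Duoxa1* in mouse 3 (0.864, 3.90 against 6.40 to 6.79 CPM). Markers of other tissues gave the rest, with parathyroid markers high in *Glis3*-Pax8Cre(ND) mouse 1 (0.902, 5191 against 3309 to 3494 CPM), skeletal muscle markers in WT(LID) mouse 3 (0.901, 1232 against 5.24 to 127 CPM), thymocyte markers in WT(LID) mouse 3 (0.999, 254 against 4.72 to 4.95 CPM) and *Glis3*-Pax8Cre(LID) mouse 4 (1, 379.7 against 8.34 to 8.53 CPM), and airway markers in *Glis3*-Pax8Cre(LID) mouse 1 (0.976, 270.7 against 49.0 to 54.3 CPM). Their part in the interactions was not tested gene by gene.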

How the results depend on the processing

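All 1969 called interactions kept their sign under every alternative in which the gene was tested, and 94 of the 122 named genes with a call were called in every setting. In the 16 fits that each left out 1 mouse, 1476 to 2228 genes were called, 963 to 1511 below 0 and 432 to 758 above 0, with 465 to 706 past the stricter threshold and 853 to 1312 reduced rises, 273 to 516 reduced falls, 142 to 213 greater rises and 81 to 182 greater falls. DESeq2 called 2771 genes, 969 of them past the stricter threshold, with 210 greater falls. Limma voom called 3348, 2041 below 0 and 1307 above 0, with 927 past the stricter threshold, and gave 1691 reduced rises, 951 reduced falls, 310 greater rises and 310 greater falls. Scaling by library size alone gave 116 greater rises. At an adjusted p under 0.1 there were 2968 calls, 1279 above 0, and at an adjusted p under 0.01 and over 2-fold 603, 480 below 0 and 123 above 0. Without the library richest in thymocyte markers of each group, chosen after the data were seen, greater rises numbered 119 and greater falls 83. Without the 2 ND libraries that stood apart, chosen likewise, greater falls numbered 225. The cause of these shifts was not tested.

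Deviations of same-numbered *Glis3*-Pax8Cre mice on ND and LID correlated, from r = 0.21 for number 1 to 0.65 for number 4. Same-numbered WT mice had lower values. The closest match on LID of *Glis3*-Pax8Cre(ND) mouse 1 was mouse 2. Mouse 4 was the richest in thymocyte markers in both *Glis3*-Pax8Cre groups. The sample titles give replicate numbers alone, so a pairing is not established. With a replicate block, 1871 genes were called in all 16 mice, 1821 with the block within genotype and 2420 with the block in *Glis3*-Pax8Cre mice alone, a fit chosen after the data were seen. That last block ended the call of *Scgb1a1* and of no other named gene.

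In the shallowest library 3 counts correspond to 0.216 CPM, which limits what can be read from lower levels.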

Other observations

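Across the 16630 genes tested, the diet response in *Glis3*-Pax8Cre mice and that in WT mice, which share no mice, correlated with Pearson's r of 0.527 and Spearman's rho of 0.519. This is a description across genes, which are not independent replicates. Of the 3476 genes that rose in WT mice, 2366 had no called interaction, and for 687 of these the 95% interval of the interaction lay within 0.5 of 0. Of the 3467 that fell, the numbers were 2953 and 670. For the remaining genes without a call, the interval allowed a difference of over 0.5 in at least 1 direction.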
